A study of Mus musculus with 24 samples.

Results

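The 10 genes described here, Adipoq, Pparg, Plin1, Plin4, Cidea, Fabp4, Lpl, Cd36, Cfd and Lep, are genes of the fat cell, and their transcripts were followed in mouse spinal nerve roots after birth. They were chosen by name among the 37074 gene names on the array. The 10 genes had 20 probes, of which 18 could be tested, and each gene is given through the probe with the highest mean level over all arrays, with its other probes as a check. The samples were C57BL/6 mice, and the sources name no genetic change and no treatment in any group. The ventral roots of spinal segments L4-L6 gave the efferent group (EN) and the dorsal roots the afferent group (AN). Tissue was taken on the day of birth (P0) and at ages of 1 W, 3 W or 5 W, and each of the 8 groups had 3 arrays. The study used 9 animals per age and pooled the fibres by group after the arachnoid had been peeled away. The methods speak of 3 independent experiments per group, but neither they nor the labels tie an array to its own animals. The p values therefore measure the spread between these arrays, which may be technical in part.

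Fat cells store triglyceride in lipid droplets. PPARγ, the product of Pparg, is the nuclear receptor that drives their differentiation, and perilipins and CIDE proteins coat the droplets and make them grow. Lipoprotein lipase, CD36 and the fatty acid binding protein FABP4 bring fatty acids to and into the cell, and adiponectin, adipsin and leptin are secreted by it. Several of these genes are not restricted to fat: Fabp4 and Cd36 are also transcribed in capillary endothelium, Lpl and Cd36 in macrophages and muscle, and Plin4 in muscle, while lipid droplets occur in many glia. Around a nerve root, fat lies outside the sheath, in the epidural space.

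The probes are 60-mers of the sense strand, and the sequences below are the first 30 bases of the 7 on which the results turn. No part of them is set off, so that all letters are lower case. Both probes of Fabp4 and of Plin1 are shown because each pair moved apart, and both of Cfd because they are not independent.
Adipoq, chr16:23157576-23157635, plus strand: tgtatggggatggggaccacaatggactct
Cfd, chr10:79355302-79355361, plus strand: aacatcacaaatggtaacatgacatcctga
Cfd, chr10:79355274-79355333, plus strand: agtgtcatcctaccggatgtggatcgaaaa
Fabp4, chr3:10204452-10204511, minus strand, from base 472 of its transcript: aagaggcctggatggaaatttgcatcaaac
Fabp4, chr3:10208442-10208501, minus strand, from base 75 of its transcript: cctttgtgggaacctggaagcttgtctcca
Plin1, chr7:86866112-86866171, minus strand, in the RefSeq transcript: catcagaaccaatttttaaggggcaccaga
Plin1, chr7:86870028-86870087, minus strand, in a cDNA clone: gatacccaggtaaagctgctgctctattct
The positions are those of the scanner files, in mm9. The 2 Cfd probes share 32 of their 60 bases. The Plin4 probe lies at chr17:56240055-56240114 and the brightest Lpl probe at chr8:71430267-71430326.

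All levels are log2 values of the deposited, quantile normalized table, and a change or difference of levels is on the same log2 scale. Arrays had median signals from 45.4 to 191, beside median backgrounds from 23 to 46, and their limits for a level well above background ran from 3.71 to 5.87. A level is not compared between probes. All 8 Schwann cell markers were well above background on every array, with a mean level of 15.15 to 17.13. Of the 10 brightest probes, 7 were well above background on all 24 arrays. Adipoq was on 22, Pparg on 23 and Plin1 on 19. The array missing for Pparg was AN 1 W replicate 1, where its spot was left out of the count as an outlier. Its level there was 10.20, above that array's limit of 5.09. In whole tissue, fewer cells of a type and less RNA per cell cannot be told apart.

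One array stood apart for the fat genes. On AN P0 replicate 3, Adipoq was at 11.83, against 6.59 and 5.62 on AN P0 replicates 1 and 2. Cfd was at 14.69 there and at 8.40 and 6.40 on the other two, which puts it 157-fold above their mean. The RefSeq probe of Plin1, the main perilipin of fat cells, was at 10.55 against 6.66 and 4.93. None of these 3 levels was reached on any of the other 23 arrays, whose highest values were 7.21 for Adipoq and 10.39 for Cfd. Fabp4 was at 14.22 against 11.74 and 10.87, and its highest level elsewhere was 12.06. Lpl was at 11.94 against 8.95 and 9.00, and at most 11.02 elsewhere.

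Of the members not yet named, Lep, Cidea, Pparg and Cd36 did not share this excess. Lep was at 7.68 on that array, within its range of 7.28 to 7.87 on the others. Cidea stood at 9.34 beside 9.83 and 9.28, and Pparg at 8.29 beside 7.76 and 7.68. Cd36 stood at 8.85 beside 8.73 and 7.74. Plin4 was higher there, at 10.68 against 8.73 and 7.22 and thus 6.52-fold above their mean, but below its level at later ages. In all, 5 of the 10 members were over 2-fold above both other AN P0 arrays on this array, Adipoq, Plin4, Fabp4, Lpl and Cfd, beside 0.920% of all tested probes.

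Ranked by their excess over the highest of the other 23 arrays, 7 of the first 8 of 36398 tested probes belonged to the fat lists. They were Adipoq with an excess of 4.62, Cfd with 4.49 and 4.30 on its overlapping probes, Cidec with 3.66, Plin1 with 3.55, Adig with 3.21 and Retn with 3.03. The excess did not extend over the fat genes as a whole. Over 2-fold above every other array were 3 of the 10 members and 4 of 45 tested genes of a wider fat storage list, beside 0.225% of all probes. The hormone-sensitive lipase gene Lipe was at 8.37 against 7.90 and 8.09, the water and glycerol channel gene Aqp7 at 5.65 against 5.38 and 5.61, and the droplet coat gene Plin2 at 11.67 against 11.65 and 11.84. Cidec codes for the droplet protein that enlarges the single droplet of white fat cells, Adig for adipogenin and Retn for resistin. Cidec was at 12.62 on this array and at 8.36 and 6.31 on the other AN P0 arrays. Ucp1, the uncoupling protein of brown fat, went the other way, with 5.67 against 9.31 and 6.63. The marker lists of other cell types gave no such step. The mean of 13 capillary endothelial markers was 11.16 beside 10.87 and 11.18, that of 11 macrophage markers 10.26 beside 9.87 and 10.32, and that of 11 skeletal muscle markers 10.31 beside 12.12 and 10.59. This array also had the lowest share of spots well above background, 55.1%, and the highest limit, 5.87. The part of these array properties in the fat gene levels was not tested, and results that rest on the array are given with and without it. Because the array was picked out by these same genes, a smaller error or p value without it is no independent support.

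**Figure D1:**
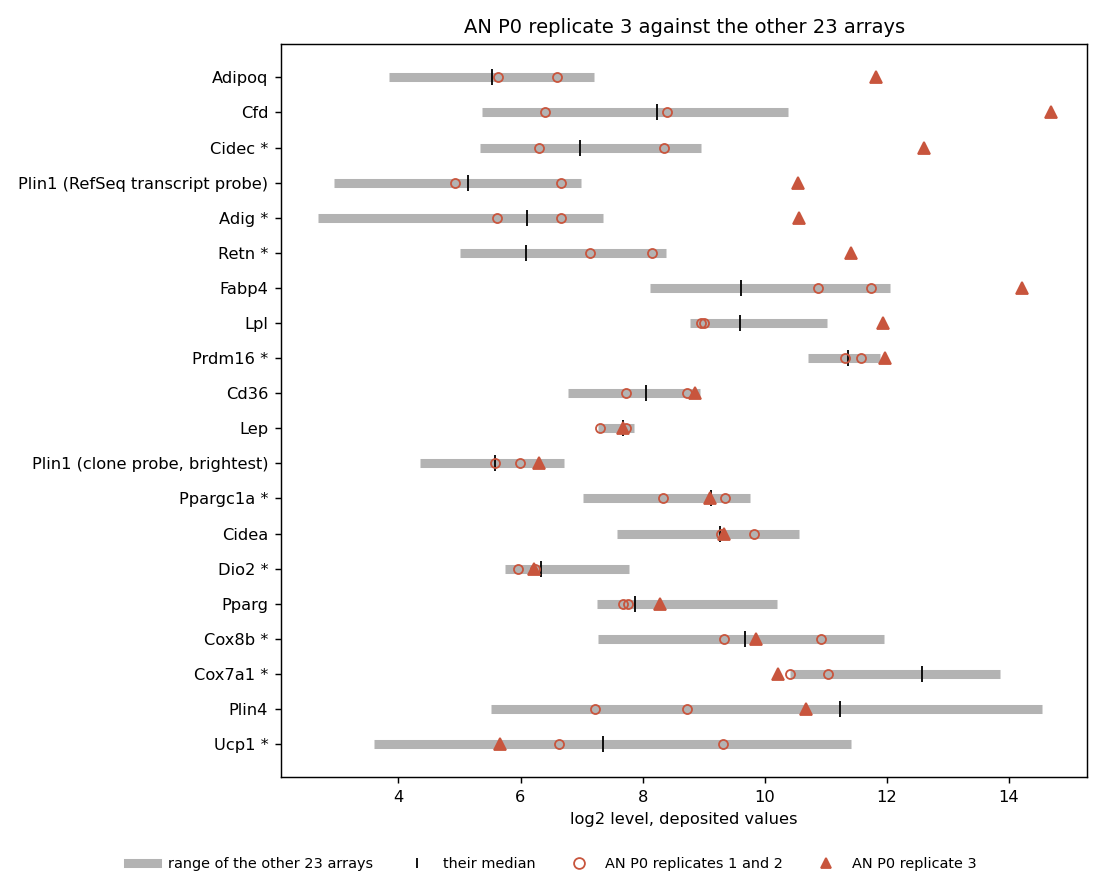
Log2 level (horizontal axis) of the members and of 9 further fat cell markers (starred) on AN P0 replicate 3 (filled triangle), on AN P0 replicates 1 and 2 (open circles) and over the other 23 arrays (grey range, black median). Adipoq, Cfd, Cidec, Plin1 by its RefSeq probe, Adig, Retn and Fabp4 lie over 2 log2 units above the grey range, while Lep, Cidea, Pparg and Ucp1 lie inside it.

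The secreted products divided into a pair that varied widely and one that was flat. The EN levels of Adipoq were 7.21, 6.31 and 6.52 at P0, 5.03, 5.50 and 6.46 at 1 W, 6.90, 6.16 and 6.04 at 3 W, then 4.92, 5.16 and 5.41 at 5 W. Its AN levels after P0 were 5.53, 5.36 and 5.12 at 1 W, 5.73, 6.52 and 5.16 at 3 W, then 5.46, 5.29 and 3.84 at 5 W. The 5 W arrays of EN all lay below the P0 arrays of EN, and in each fibre 1 of the 3 arrays of 5 W was not well above background. From P0 to 5 W Adipoq fell by 3.15 in AN in the limma fit (SE 0.99, adjusted p = 0.0127). Without AN P0 replicate 3 the difference was -1.24 (adjusted p = 0.0534), and without AN 5 W replicate 3 it was -2.64 (adjusted p = 0.0607). The change in EN to 5 W was -1.52 (adjusted p = 0.207 with all arrays, 0.00866 without AN P0 replicate 3).

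Cfd, which codes for the complement protease adipsin, had its lowest group means at 1 W and higher means at 3 W. Its levels in EN were 8.98, 7.22 and 8.73 at P0, 5.93, 6.09 and 7.58 at 1 W, 10.39, 9.86 and 9.27 at 3 W and 8.24, 8.67 and 8.46 at 5 W. In AN they were 5.36, 5.68 and 6.59 at 1 W, 8.83, 8.80 and 7.78 at 3 W and 8.05, 8.45 and 7.58 at 5 W. The 1 W and 3 W arrays did not overlap in either fibre. No test compared these ages, all 3 W arrays were on a slide without 1 W arrays, and the share of all probes without overlap was not counted. On the slides that held both P0 and 1 W arrays, the change at 1 W was -3.04 and -0.40 in EN. In AN it was -3.04 and -3.95, the latter with AN P0 replicate 3 among its P0 arrays. Against P0, the fit called only the fall at 1 W in AN, of 3.95 (SE 1.26, adjusted p = 0.0307). That call rests on AN P0 replicate 3: without it the change was -1.52 (adjusted p = 0.126). Leaving out AN 1 W replicate 1 or replicate 2 also ended it, at -3.69 (adjusted p = 0.0934) and -3.85 (adjusted p = 0.0862). Without AN P0 replicate 3, Cfd in EN passed the test both for 1 W, at -1.77 (adjusted p = 0.0263), and for 3 W, at 1.53 (adjusted p = 0.0289). Lep, the gene of leptin, lay between 7.28 and 7.87 on all 24 arrays and was not called in any comparison; its AN-EN difference at 5 W was -0.09 with a 95% interval of -0.44 to 0.27.

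Plin4 changed most of the 10 genes with age. It codes for perilipin 4, which coats small nascent droplets. Its levels in EN were 8.55, 10.08 and 7.82 at P0, 6.02, 6.27 and 7.39 at 1 W, 11.24, 11.25 and 11.97 at 3 W and 11.89, 13.32 and 13.12 at 5 W. In AN they were 8.73, 7.22 and 10.68 at P0, 5.51, 6.17 and 6.61 at 1 W, 12.64, 12.76 and 12.88 at 3 W and 13.35, 14.54 and 14.47 at 5 W. Each 3 W or 5 W array lay above each P0 and 1 W array in both fibres. The groups ranked from AN at 1 W (mean 6.10 ± 0.56, SD, n = 3) and EN at 1 W (6.56 ± 0.73) through EN and AN at P0 (8.82 ± 1.15 and 8.88 ± 1.74), EN at 3 W (11.49 ± 0.42), AN at 3 W (12.76 ± 0.12) and EN at 5 W (12.78 ± 0.77) to AN at 5 W (14.12 ± 0.67). Neighbours of one age in that order did not pass the AN against EN test.

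The rise of Plin4 from P0 to 5 W was 15.5-fold in EN (log2 3.96, SE 0.69, adjusted p = 8.62e-05) and 37.9-fold in AN (log2 5.24, adjusted p = 3.92e-06). At 3 W it stood 6.36-fold above P0 in EN (adjusted p = 0.00313) and 14.8-fold in AN (adjusted p = 0.000126). Without AN P0 replicate 3 the AN changes were 4.79 at 3 W and 6.15 at 5 W. At 1 W Plin4 had changed by -2.26 in EN (adjusted p = 0.0199) and by -2.78 in AN (adjusted p = 0.0069). In AN it missed the threshold without AN P0 replicate 3 (-1.88, adjusted p = 0.0537), and in EN without P0 replicate 2 (-1.63, adjusted p = 0.114), without 1 W replicate 1 (-1.99, adjusted p = 0.0843) or without 1 W replicate 2 (-2.11, adjusted p = 0.0689). All 3 W arrays were on a slide that held no P0 array, and only the 5 W arrays linked that slide to those of P0. With slide as a block the 3 W change in EN was 2.33 (adjusted p = 0.0756) and in AN 3.54 (adjusted p = 0.011). On the slide that held arrays of both P0 and 5 W, the difference was 4.37 in EN and 5.59 in AN.

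Cidea, a droplet protein best known from brown fat, fell by 5 W. Its levels in EN were 10.56, 10.22 and 9.24 at P0, 8.42, 8.23 and 10.18 at 1 W, 10.19, 10.33 and 9.90 at 3 W and 7.62, 7.58 and 8.21 at 5 W. Every EN array at 5 W was below every EN array of the other ages. The change from P0 to 5 W was -2.21 in EN (SE 0.44, adjusted p = 0.000326). In AN, where Cidea was at 9.83, 9.28 and 9.34 at P0 and at 8.18, 8.75 and 8.27 at 5 W, it was -1.08 (adjusted p = 0.0472). The AN call was lost without AN P0 replicate 3 (-1.15, adjusted p = 0.0722), without either of the other AN P0 arrays, and in 12 further fits that each left out 1 array. Plin1 through its clone probe was called once, at 3 W in AN, where it was at 4.80, 4.35 and 4.87 and not well above background on any array, against 6.00, 5.58 and 6.30 at P0. In the deposited values it was therefore at least 2.30-fold higher at P0, or at least 2.04-fold without AN P0 replicate 3. The measured changes were -1.29 (adjusted p = 0.0172) and, without that array and not called, -1.12 (adjusted p = 0.0691). The call was also lost without AN 3 W replicate 2 (-1.13, adjusted p = 0.067) and with slide as a block (-0.84, adjusted p = 0.308). With normexp background correction the change was -0.45 (adjusted p = 0.0484), under the fold threshold and smaller than these bounds.

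Among the genes of fatty acid uptake, Lpl rose in EN. It codes for the lipase that releases fatty acids from lipoproteins. Its levels in EN were 9.26, 9.73 and 8.97 at P0, 9.03, 9.44 and 9.54 at 1 W, 10.48, 10.81 and 10.88 at 3 W and 10.73, 11.02 and 10.81 at 5 W. In AN they were 8.78, 9.14 and 9.38 at 1 W, 9.60, 10.20 and 9.91 at 3 W and 9.42, 9.65 and 9.94 at 5 W. All EN arrays at 3 W and 5 W lay above all EN arrays at P0 and 1 W, and also above all AN arrays of 3 W and 5 W. The rise from P0 in EN was 2.64-fold at 3 W (log2 1.40, SE 0.51, adjusted p = 0.0256) and 2.88-fold at 5 W (log2 1.53, adjusted p = 0.0162). The 3 W call was lost without EN P0 replicate 1 (1.37, adjusted p = 0.0588) or 3 (1.23, adjusted p = 0.0877) and without EN 3 W replicate 2 (1.36, adjusted p = 0.0631) or 3 (1.32, adjusted p = 0.0686). The 5 W call was lost without EN P0 replicate 3 (1.36, adjusted p = 0.0619). With slide as a block the changes were 1.12 (adjusted p = 0.258) and 1.36 (adjusted p = 0.0545), and without AN P0 replicate 3 the adjusted p values were 3.55e-05 and 1.21e-05. The change of Lpl to 5 W in AN was -0.30 with all arrays and 0.69 without AN P0 replicate 3, and neither was called.

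Of the other 5 Lpl probes, 3 rose past the threshold in EN at 3 W and 4 at 5 W. The remaining probe, at chr8:71413311-71413370, went down, by 1.28 at 3 W (adjusted p = 0.0083) and by 1.01 at 5 W (adjusted p = 0.0313). Cd36, the fatty acid translocase, was at 8.73, 7.74 and 8.85 in AN at P0 and at 7.03, 6.78 and 8.45 at 5 W, which overlap. Its change of -1.02 passed the test (adjusted p = 0.0328), but not without AN P0 replicate 3 (-0.81, adjusted p = 0.132) or replicate 1 (-0.87, adjusted p = 0.107), or without AN 5 W replicate 1 (-0.83, adjusted p = 0.122) or 2 (-0.70, adjusted p = 0.158). In EN all Cd36 levels lay between 7.84 and 8.94.

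Pparg itself changed little. On 23 arrays it lay between 7.25 and 8.63, and on AN 1 W replicate 1 it was at 10.20 beside 7.97 and 7.87. That spot was the only one of the 480 member values that the scanner software had marked as an outlier. Pparg was not called in any comparison, with or without that value.

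**Figure D2:**
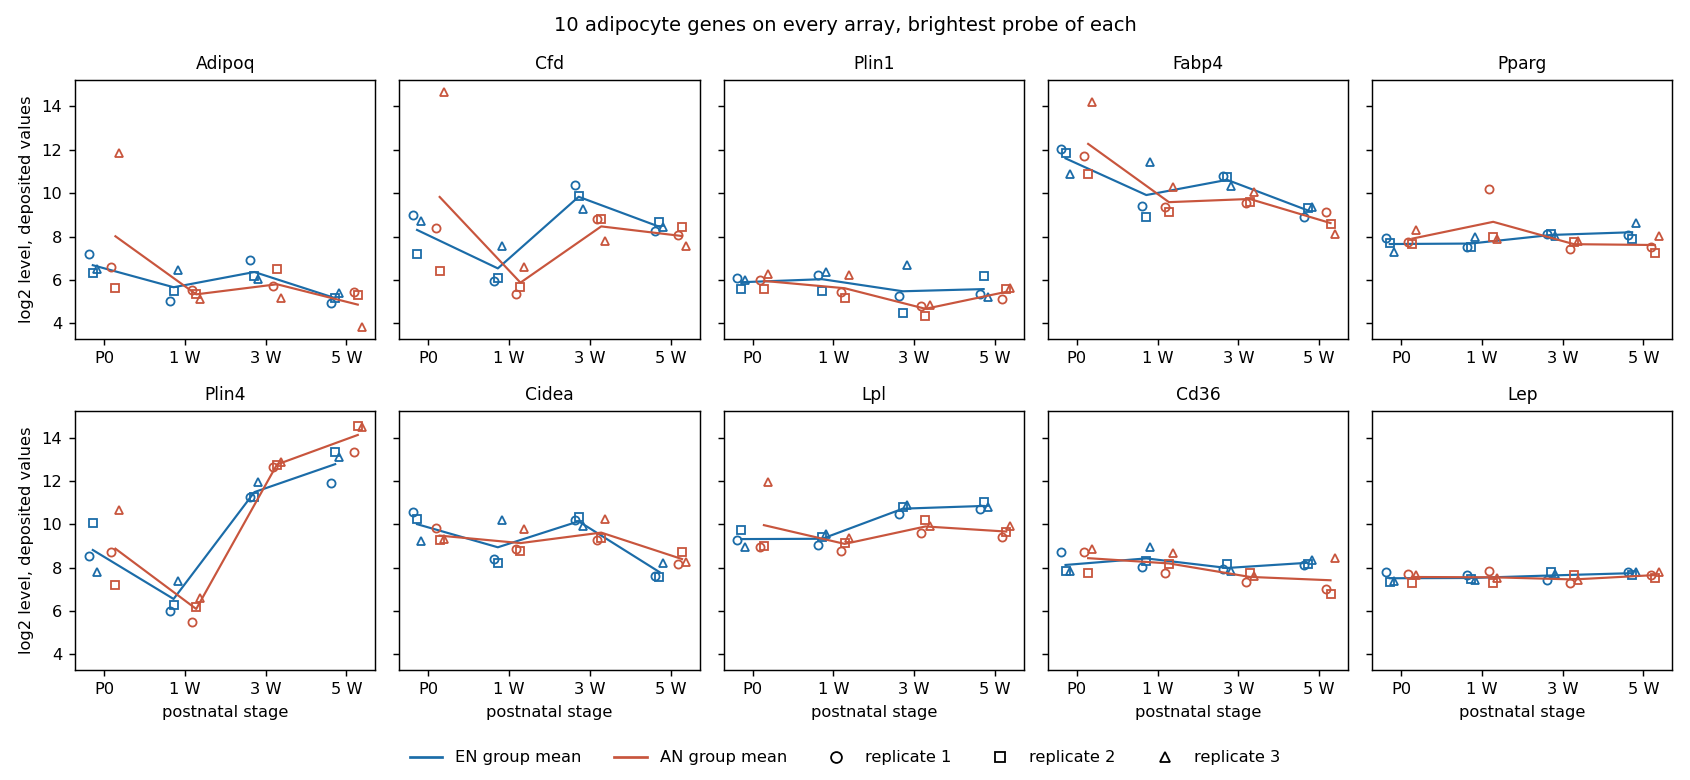
Log2 level (vertical axis) of the 10 genes on every array, by age, with EN in blue and AN in red; symbols are replicates and lines join group means of 3 arrays. Plin4 falls at 1 W and climbs to 12.78 in EN and 14.12 in AN, and the red triangle of AN P0 replicate 3 stands alone in Adipoq, Cfd, Fabp4 and Lpl.

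The members that passed an adjusted p below 0.05 with a fold change above 2 were counted against P0. In EN, 0 of 10 rose and 1 fell at 1 W, where 6.24% of all tested probes rose and 5.67% fell. At 3 W in EN 2 rose, Plin4 and Lpl, and 0 fell (16.1% and 14.4% of all probes). At 5 W in EN 2 rose, the same pair, and 2 fell, Cidea and Fabp4 (15.5% and 14.5%). In AN, 0 rose and 3 fell at 1 W, Plin4, Fabp4 and Cfd (4.96% and 3.62%). At 3 W in AN 1 rose, Plin4, and 2 fell, Plin1 and Fabp4 (15% and 12.8%). At 5 W in AN 1 rose, Plin4, and 4 fell, Adipoq, Cidea, Fabp4 and Cd36 (15.2% and 12.7%). Of the 3 falls at 1 W in AN only that of Fabp4 was called without AN P0 replicate 3, and of the 4 falls at 5 W again only that of Fabp4. In EN the same omission gave 3 falls in place of 1 at 1 W, Plin4, Fabp4 (-1.69, adjusted p = 0.0178) and Cfd, 3 rises in place of 2 at 3 W, and 3 falls in place of 2 at 5 W.

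**Figure D3:**
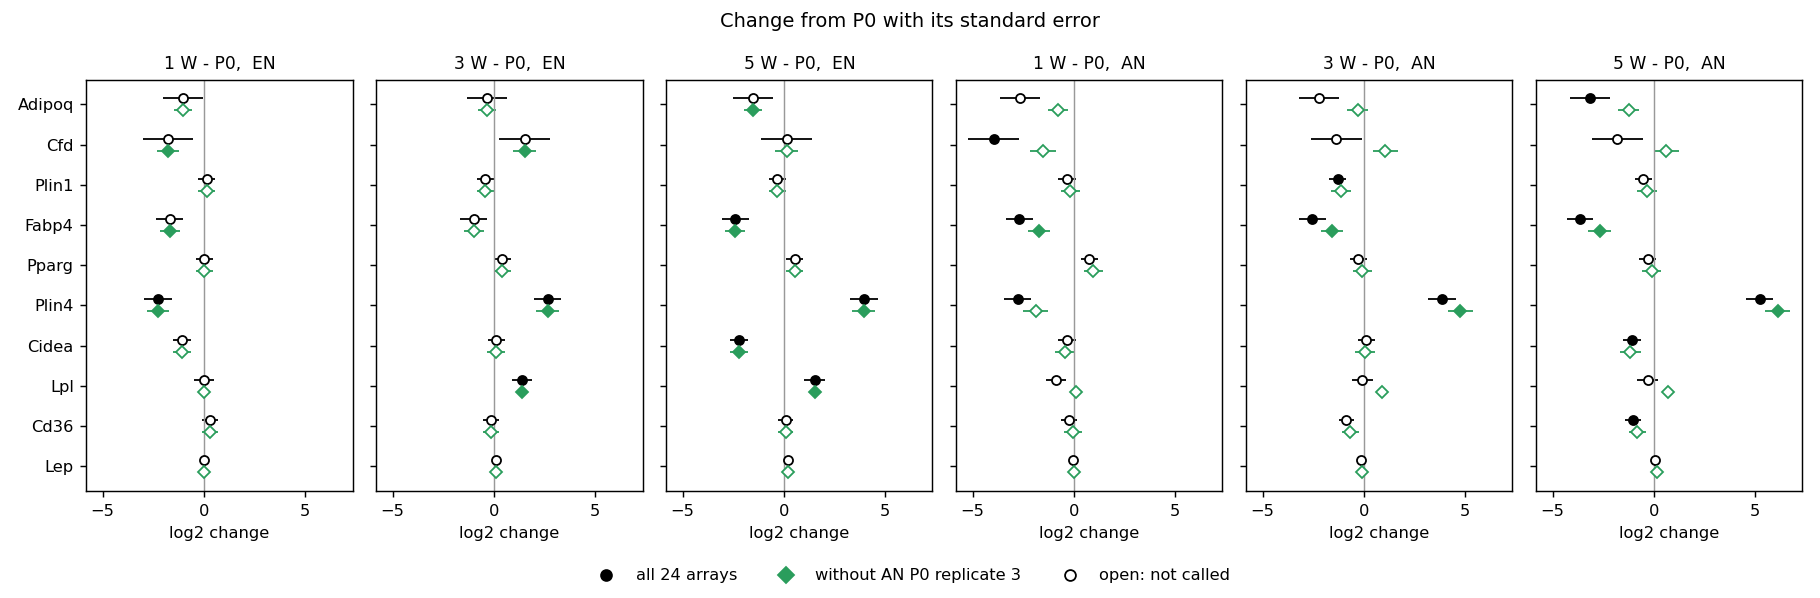
Log2 change from P0 (horizontal axis) with its standard error for the 10 genes at each later age in EN and AN, fitted over all 24 arrays (black circles) and without AN P0 replicate 3 (green diamonds); filled symbols passed the threshold. The AN falls of Adipoq, Cfd and Fabp4 are smaller without that array, and the Plin4 rises in AN are larger.

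Whether the fibres differ in fat genes was asked at each age. By limma, 0 of 10 members were called between AN and EN at every age, while 0.327% of all probes were called at P0, 2.79% at 1 W, 3.12% at 3 W, 3.32% at 5 W, nor for the mean over the 4 ages (3.58%). At an unadjusted p below 0.05 limma gave 1 member at 1 W (Pparg, 1.00, adjusted p = 0.268), 2 members at 5 W, and 0 at each of the other ages. The Pparg difference came with the outlier spot, and without it was 0.24 (adjusted p = 0.811). At 5 W they were Lpl (-1.18, 95% interval -2.24 to -0.12, adjusted p = 0.186) and Cd36 (-0.81, adjusted p = 0.237). No change of the AN-EN difference since P0 was called for a member, beside 0.0632%, 0.525% and 0.931% of all probes at the 3 later ages; the smallest p was that of Lpl at 5 W, with 0.0201 (adjusted p = 0.317).

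Lpl and Cfd were nevertheless lower in AN than in EN in every same-numbered pair from 1 W on. For Lpl the differences were -0.25, -0.29 and -0.16 at 1 W, -0.88, -0.61 and -0.98 at 3 W and -1.31, -1.37 and -0.87 at 5 W. At P0 they were -0.31, -0.73 and, with AN P0 replicate 3, 2.97. For Cfd they were -0.57, -0.41 and -0.99 at 1 W, -1.56, -1.05 and -1.49 at 3 W, then -0.19, -0.22 and -0.88 at 5 W, and none of its differences was called. Pparg was lower in AN in all 6 pairs of 3 W and 5 W, with differences from -0.69 to -0.22, and was not called either. The flat Lep was lower in AN in all 6 of these pairs too, with differences from -0.293 to -0.005. How many of all probes were lower in AN in every pair was not counted. At 3 W the mean level was higher in AN for 1 of 10 members. It was so for 13 of 45 genes of the wider fat storage list and 3 of 9 further fat cell markers. Mean levels higher in AN at 3 W were also few in other lists, with 0 of 11 macrophage and 1 of 9 fibroblast and perineurial markers. They were 0 of 7 for pericyte and smooth muscle, 2 of 13 for capillary endothelial and 2 of 8 for Schwann cell markers. The muscle list had 11 of 11 higher in AN and the neuron list 7 of 8. When AN P0 replicate 3 was left out, which can change the error but not the value of the 5 W difference, the Lpl difference of -1.18 passed the threshold (SE 0.22 in place of 0.51, adjusted p = 0.00271). Lpl was itself high on that array, so the smaller error follows in part from its choice, and the pass is not independent support. The fit without that array called 3 of the other 5 Lpl probes at 5 W too, with -1.17, -1.30 and -1.27. On that array these probes were 10.4-, 6.64- and 7.78-fold above the mean of AN P0 replicates 1 and 2. They read the same gene on the same arrays, so their calls are no independent support either. Not called were a probe at -0.84 (adjusted p = 0.409) and, in the other direction, that at chr8:71413311-71413370, with 0.34 (adjusted p = 0.673). Plin4 leaned the other way, with AN above EN by at least 0.92 in all 3 pairs at 3 W and at least 1.22 in all 3 at 5 W, but its differences of 1.27 and 1.35 did not pass the test (adjusted p = 0.33 and 0.278).

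The paired probes of Fabp4 gave different courses. Through the probe from base 472, Fabp4 in EN was at 12.06, 11.85 and 10.91 at P0, 9.43, 8.90 and 11.42 at 1 W, 10.78, 10.75 and 10.32 at 3 W and 8.92, 9.33 and 9.36 at 5 W. In AN it was at 9.35, 9.13 and 10.28 at 1 W, 9.53, 9.61 and 10.06 at 3 W and 9.15, 8.60 and 8.12 at 5 W. All 5 W arrays were below all P0 arrays in both fibres. This probe had changed from P0 to 5 W by -2.40 in EN (SE 0.66, adjusted p = 0.00508) and by -3.65 in AN (adjusted p = 0.000148), or by -2.68 in AN without AN P0 replicate 3 (adjusted p = 0.000775). In AN the changes at 1 W and 3 W were -2.69 (adjusted p = 0.0069) and -2.54 (adjusted p = 0.00367), and without that array -1.72 (adjusted p = 0.0486) and -1.57 (adjusted p = 0.0296). With slide as a block the 3 W change was -2.08 (adjusted p = 0.126).

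Through the probe from base 75, Fabp4 in EN was at 9.63, 9.31 and 9.07 at P0, 10.12, 10.23 and 10.29 at 1 W, 11.06, 10.69 and 10.91 at 3 W and 10.99, 10.41 and 11.23 at 5 W. In AN it was at 8.96, 8.22 and 11.53 at P0, 9.07, 9.35 and 8.97 at 1 W, 9.31, 8.90 and 8.74 at 3 W and 9.41, 8.19 and 9.48 at 5 W. EN lay above AN on all arrays from 1 W on. Here the change in EN to 5 W was 1.54 (adjusted p = 0.0224), opposite to the other probe, and for the mean of both probes it was -0.43 (adjusted p = 0.526). In AN the probe from base 75 changed from P0 by -0.44 at 1 W, -0.59 at 3 W and -0.54 at 5 W. Without AN P0 replicate 3 these changes were 0.54, 0.393 and 0.435, and none was called with or without it. The AN-EN difference through this probe was -1.90 at 3 W (SE 0.54, adjusted p = 0.0443), -1.85 at 5 W (adjusted p = 0.0464) and -1.15 over all ages (adjusted p = 0.00521). Both probes had their highest AN level on AN P0 replicate 3.

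The Plin1 probes also differed. Its RefSeq probe in EN was at 6.29 ± 0.66 (SD, n = 3) at P0 and at 4.75, 4.43 and 4.19 at 5 W, where 1 of 3 arrays was well above background. With 2 of these arrays below that limit, the size of the EN change was not measured. In AN at 5 W it was at 3.30, 2.94 and 3.52 and above background on none, so that P0 was at least 7.39-fold higher (adjusted p = 0.000388), or at least 2.47-fold without AN P0 replicate 3 (adjusted p = 0.000105). These p values belong to the measured changes of -4.13 and -2.54, not to the bounds. The clone probe was at 5.11, 5.60 and 5.65 in AN at 5 W and did not pass the test there.

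**Figure D4:**
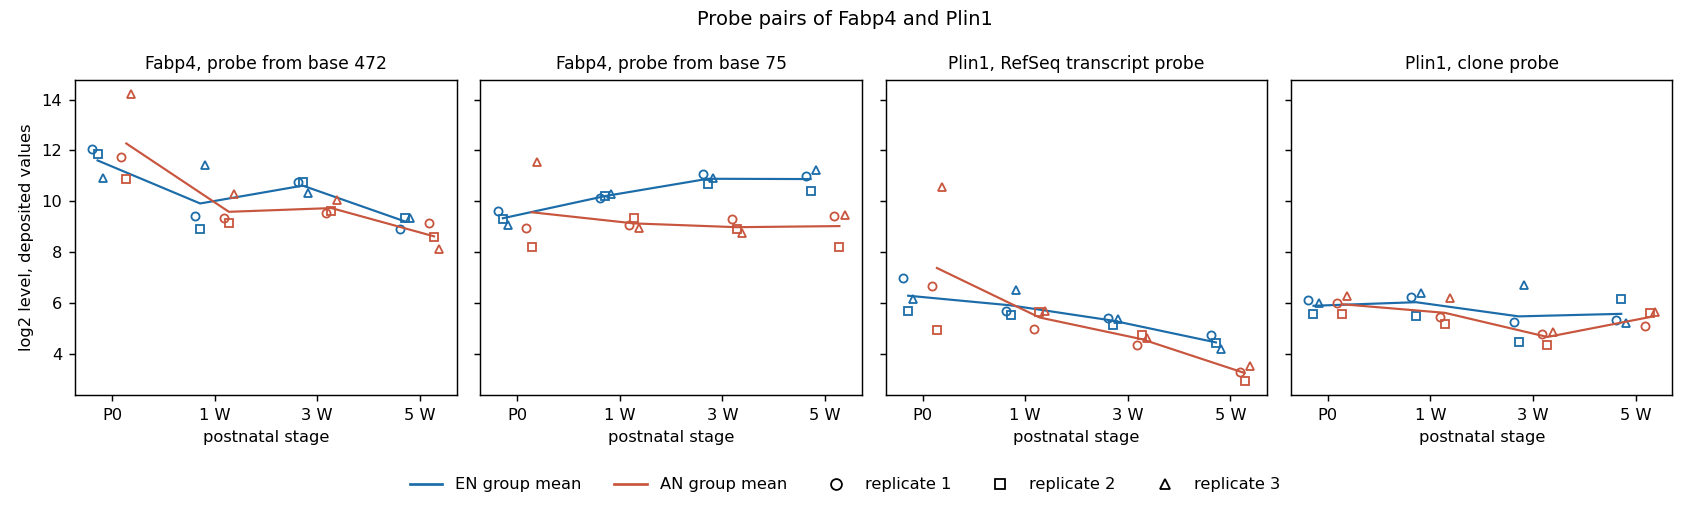
Log2 level (vertical axis) by age of the 2 tested probes of Fabp4 and of Plin1, with EN in blue and AN in red, symbols for replicates and lines through group means. The Fabp4 probe from base 472 falls with age, the one from base 75 rises in EN to 10.88 at 5 W, and AN P0 replicate 3 is high on each probe but the Plin1 clone probe.

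Fat cell markers outside the 10 genes showed which arrays carried more of which signal. The list had 10 names, of which 9 could be tested, and 7 or more of these were well above background on every array. Ucp1 in EN was at 9.60, 7.79 and 6.07 at P0 and at 9.56, 7.47 and 11.42 at 1 W. In AN it was at 9.31, 6.63 and 5.67 at P0 and at 8.35, 6.53 and 10.04 at 1 W. The order of the 3 numbers was thus the same in EN and AN, and same-numbered EN and AN arrays always shared a slide. On EN 1 W replicate 3, where Ucp1 was highest of all arrays, 4 of the 10 members were over 2-fold above both other EN 1 W arrays, Plin4, Cidea, Fabp4 and Cfd, beside 3.43% of all probes. On AN 1 W replicate 3, the highest AN array for Ucp1 at that age, 0 of the 10 members were, beside 1.67% of all probes. On replicate 1 of EN and of AN at P0, highest for Ucp1 in their groups, it was also 0 of 10. Of the 9 tested markers outside the members, Ucp1 among them, 4 passed the same 2-fold mark on AN 1 W replicate 3. There were 3 on EN 1 W replicate 3, 3 on AN P0 replicate 3 and 2 on replicate 1 of each fibre at P0. Cidec at 3 W stood at 8.72, 8.79 and 8.27 in EN and lower in AN, with 7.12, 7.03 and 6.72, a difference that was not called. The part of the Ucp1 signal in the levels of the members was not tested. The mean level of the skeletal muscle markers varied within groups, for example between 9.83 and 13.49 over the 3 AN arrays of 3 W, and it moved with age. Of 11 muscle markers 8 fell in EN and 7 in AN from P0 to 1 W, with median changes of -3.07 and -2.80, in the comparisons in which Plin4 fell. At 5 W 7 fell in EN (median -2.47) and 4 in AN, where Plin4 rose. The part of muscle transcripts in Lpl, Cd36 and Plin4 was not tested. The macrophage list lay at 9.87 to 10.11 in EN at P0 but at 11.92 to 12.06 in EN when 5 W old, beside the EN rise of Lpl. In AN it lay at 9.87 to 10.32 at P0 and at 11.12 to 11.73 at 5 W, where no change of Lpl was called. The part of macrophage transcripts in the Lpl levels was not tested.

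**Figure D5:**
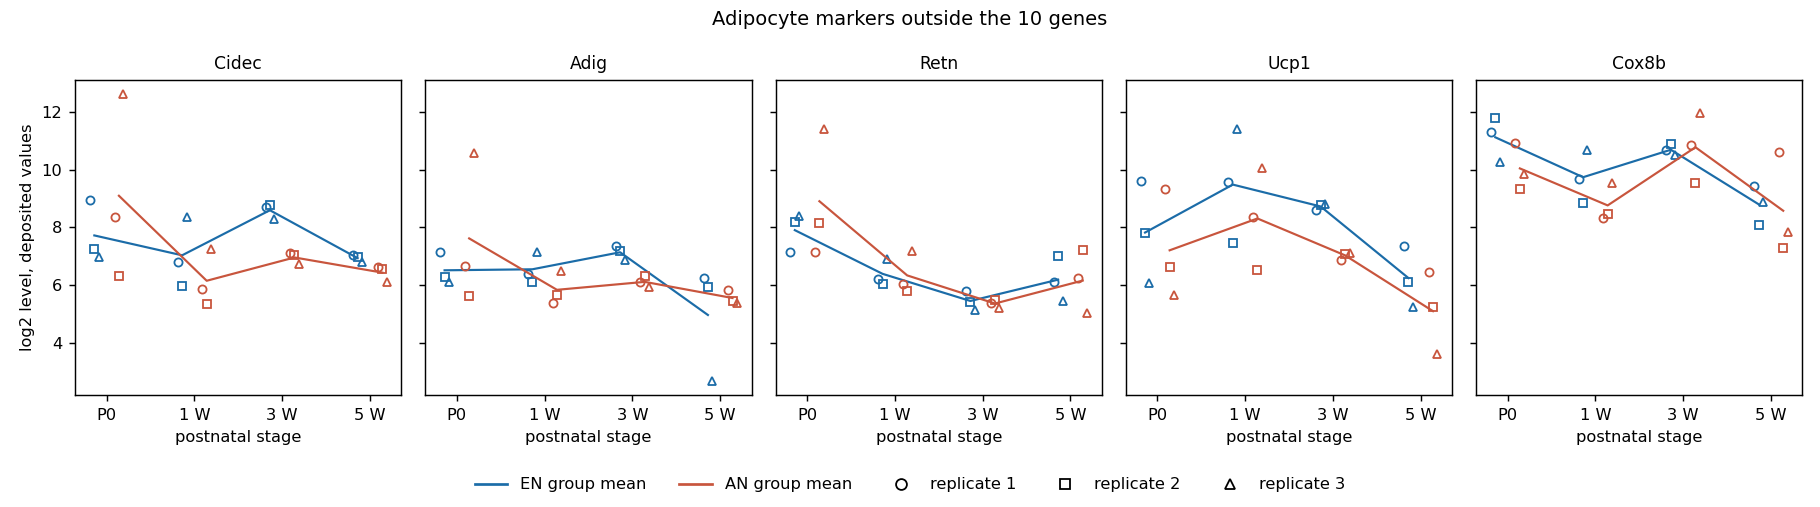
Log2 level (vertical axis) by age of 5 fat cell markers outside the 10 genes, with EN in blue and AN in red, symbols for replicates and lines through group means. Cidec, Adig and Retn are highest on AN P0 replicate 3, and Ucp1 is highest on replicate 3 of EN and AN at 1 W.

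The wider list of fat storage genes had 47 names, of which 45 could be tested. At 3 W 14 rose and 6 fell in EN, with a median change of 0.59 against 0.04 over all tested probes, and 13 rose and 5 fell in AN. Of all probes 16.1% rose and 14.4% fell in that EN comparison, and 15% and 12.8% in that AN comparison. At 5 W 12 rose and 5 fell in EN (median 0.48), beside 15.5% and 14.5% of all probes, and 13 rose and 8 fell in AN (median 0.37), beside 15.2% and 12.7%. Without AN P0 replicate 3 the AN counts were 12 and 3 for 3 W, 14 and 6 for 5 W. G0s2, an inhibitor of the triglyceride lipase, rose by 5 W by 2.62 in EN (adjusted p = 1.87e-07) and 2.55 in AN (adjusted p = 2.69e-07), and Gpd1, which supplies glycerol 3-phosphate, by 2.40 in EN (adjusted p = 7.18e-08). Gpihbp1, which holds lipoprotein lipase on the capillary wall, changed by -2.35 in EN (adjusted p = 4.13e-08) and by -2.72 in AN (adjusted p = 5.56e-09), while Lpl rose in EN. Car3, a carbonic anhydrase abundant in white fat, changed by -2.65 in EN (adjusted p = 0.0238). Between the fibres, limma called none of this list at P0, while 1 gene differed at 1 W, and 2 genes differed at each of the ages after that, of 45 tested, beside 2.79%, 3.12% and 3.32% of all probes. Npr3, the natriuretic peptide clearance receptor, was among them at each of the 3 later ages, higher in AN by 1.09, 1.62 and 1.39.

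The genes whose levels followed a member most closely over the 24 arrays were looked up for Adipoq, Fabp4 and Lpl. These correlations are descriptions, since the arrays share ages, slides and, for Adipoq, 1 extreme array. For Adipoq the closest were Cidec (r = 0.88), Trim3 (0.81), Pck1 (0.79), Fchsd2 (0.79) and Adig (0.78), which without AN P0 replicate 3 became 0.69, 0.37, 0.70, 0.42 and 0.50. For Fabp4 they were Pck1 (r = 0.92), N4bp2 (0.86), Zic1 (0.85), Cidec (0.84) and Fbln1 (0.83), with 0.71 to 0.88 without that array. Among the genes closest to Lpl were C030034L19Rik (r = 0.89), Ssh2 (0.84), Jmjd1c (0.83) and Irf4 (0.81), with 0.76 to 0.88 without it.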

How the data were processed

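Total RNA was hybridized to 24 Agilent 1-colour mouse arrays, 3 for each of 8 groups taken from the labels. The authors deposited scanner files with spot intensity values and marks from Feature Extraction 10.7.1.1, and a log2 table that they had quantile normalized in GeneSpring. Each column followed the intensity of its own array most closely (r 0.9955 to 0.9999). The log2 table was fitted with limma 3.58.1 in R 4.3.3 with 1 mean per group and eBayes, over the 36398 of 56605 gene probes well above background on all 3 arrays of a group. A call needed a Benjamini-Hochberg adjusted p below 0.05 and a fold change above 2. Every adjusted p in the text is from limma, and from this fit unless the text names another setting or an omitted array or spot. Where no array of a group was above background, a bound used each array's lowest level above background. The fit was tested on simulated data. Figures used Python 3.11.15. Deviations of same-numbered AN and EN arrays correlated in all 12 pairs (r 0.107 to 0.647). The labels do not give this pairing, and same-numbered arrays always shared a slide. At 3 W, where all arrays were on the same slide, r was 0.183, 0.107 and 0.213. The part of the slide in these correlations was not tested. The genes and lists were chosen with earlier results of these data known. The text names the 10 genes, called list genes with the 3 largest changes of a comparison, and the 5 genes most like Adipoq, Fabp4 and Lpl, of which 1 is not reported here; Ucp1, Cidec, Adig, Retn, Gpd1, Gpihbp1 and Npr3 were chosen after their values were seen. Alternatives were other background corrections, scalings, filters, blocks, weights, call rules, probes and omitted arrays.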

Additional observations from a re-analysis of the deposited data

How the results depend on the processing

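Of 18 called changes of single genes, each kept its direction under every alternative, except that Fabp4 in EN at 5 W became 1.54 through its other probe. The replicate block changed no call of a member and called none between the fibres (lowest adjusted p = 0.0566, Cd36 at 5 W), though over all probes this pairing raised the calls from 119 to 220 at P0 and from 1134 to 1741 at 3 W, and those for the change of the difference to 5 W from 339 to 993. No call was lost with scanner signal, quantile normalized or scaled to the 75th percentile (missing spots filled with the probe's mean), with array weights or without outlier spots. Slide as a block lost 7, the 6 arrays fitted alone 5, no filter 3, normexp 3, the other probes 3 and the mean over probes 1; the cause was not tested. The number called at 5 W in AN, 5, became 3 with normexp, with no filter and with the 6 arrays alone, which also gave 0 at 1 W in AN and 1 at 3 W between AN and EN, Plin4. Array weights gave 3 at 1 W in EN, as did an unadjusted p, which gave 1 at 1 W and 1 at 5 W between fibres. Slide as a block gave 0 at 3 W in EN. The other probes of Fabp4 and Plin1, chosen after seeing the data, gave 1 between the fibres at 3 W and 1 at 5 W. Leaving out 1 array gave 0 to 3 calls in EN at 1 W, 1 to 3 at 3 W and 3 to 5 at 5 W, 1 to 4, 2 to 6 and 2 to 5 in AN, 0 to 1 between fibres at 5 W and 0 at the other ages. Signal over background limits Plin1 and Adipoq.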
